A study of Homo sapiens with 15 samples.

Results

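The genes described here lie at the distal end of the long arm of chromosome 3, from position 169000000 of hg38 to the telomere. Members were chosen by position, name and measured raw counts, since each had a gene name other than a bare Ensembl identifier, an intergenic noncoding number or an RNU small nuclear RNA, and a mean raw count of at least 100 over 15 RNA-seq libraries. TP63, SOX2, SOX2-OT, CLDN1, HES1, ETV5 and EPHB3 were left out by name. The rule gave 152 members among the 61544 genes counted. Of these, 122 were protein-coding, 18 were long noncoding RNA genes, 9 were pseudogenes, 2 were snoRNA genes and 1 was a miRNA gene.

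Gain of distal 3q is a frequent chromosomal change in lung squamous cell carcinoma (LUSC) and other squamous tumors. The gained segment carries many genes side by side, among them the squamous lineage factors TP63 and SOX2, the kinase genes PIK3CA and PRKCI, the cytokinesis factor ECT2 and the translation factor EIF4G1. DNA copy number was not measured in these libraries, and its part in the levels given here was not tested.

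HCC95, an established human LUSC cell line whose labels give it as human lung epithelial cells, was transfected with 1 of 5 small interfering RNAs (siRNAs). siKLF5b, siTP63b, siSOX2b and siGRHL2a each target the mRNA of 1 transcription factor, and siNC1 is the negative control. Each group had 3 libraries of polyadenylated RNA. A knockdown rests on 1 siRNA sequence, and all libraries come from 1 cell line. Nothing in the labels says that replicates came from separate cultures, so p-values measure the spread between these samples, which may be technical.

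Total counts ranged from 15655495 to 34229063 per library. The share of even counts was 49.7% to 50.7% in siNC1 and siKLF5b and 66.1% to 69.0% in the other 9 libraries, and the column names part the libraries in the same way. A difference between the sets and an effect of these 3 knockdowns against siNC1 cannot be told apart. siKLF5b was therefore compared with siNC1, and siTP63b, siSOX2b and siGRHL2a were each compared with the mean of the other 2. In those comparisons the targeted mRNA was lower by edgeR's quasi-likelihood test, with a log2FC of −0.64 for KLF5 (adjusted p = 5.3e-10), −1.06 for TP63 (1.3e-17), −1.46 for SOX2 (4.8e-14) and −0.25 for GRHL2 (2.1e-05). The 10 epithelial and squamous markers summed to between 11055 and 12683 CPM in siNC1, where CPM is the count scaled to library size with TMM factors. KRT5 alone had 8083 to 9491 CPM of this sum. In siNC1 the 5 leukocyte markers summed to between 0.377 and 0.604 CPM and the 5 fibroblast markers to between 3.69 and 5.90 CPM. The 4 endothelial markers summed to between 14.6 and 15 CPM there, nearly all of it VWF with 14.3 to 14.6 CPM.

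In control cells the distal 3q genes stood at a high level as a group. The 122 protein-coding members had a median of 15.1 CPM per kilobase of exon in siNC1, with quartiles of 7.40 and 33.0. The 11523 protein-coding genes elsewhere that met the same minimum count had a median of 5.39 CPM per kilobase of exon, with quartiles of 2.35 and 12.4. Since the rule itself used the counts, these levels are a description without a test. The order held per kilobase of gene span, the length over which reads were counted, with medians of 2.04 and 0.818 CPM. It also held among genes without an overlapping gene that had 10% or more of their counts, where 69 members had a median of 15.8 and 5881 genes elsewhere 5.64 CPM per kilobase of exon.

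Taken by chromosome under the same rule, the distal 3q median was above that of each of the other 23 parts of the genome, the rest of chromosome 3 being 1 of them. Those medians ran from 2.67 to 8.63 CPM per kilobase of exon, the highest being that of chromosome 5. They cover whole chromosomes or most of 1, and segments as short as the region were not compared on other chromosomes. The ranking therefore does not make the region the highest segment of the genome. The median of chromosome 3 before the region was lower than the distal median by a factor of 2.96. More protein-coding genes of the region also reached the minimum count, 134 of 179 (74.9%) against 11928 of 19799 (60.2%) elsewhere. Both 134 and 179 include genes that the rule leaves out by name.

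The high level was not limited to the region as the rule bounds it. In blocks of 5 Mb, the block from 20 to 15 Mb before the start of the region had a median of 24.3 CPM per kilobase of exon over 22 genes, and the next block 8.48 over 21 genes. The block 30 to 25 Mb before the start stood at 10.1 over 21 genes, and the blocks that begin 50 and 45 Mb before it at 4.95 over 31 genes and 4.89 over 23 genes. Within the region the block medians ran from 8.36 over 9 genes in the fifth block to 18.8 over 36 genes in the last, at the telomere.

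**Figure D1:**
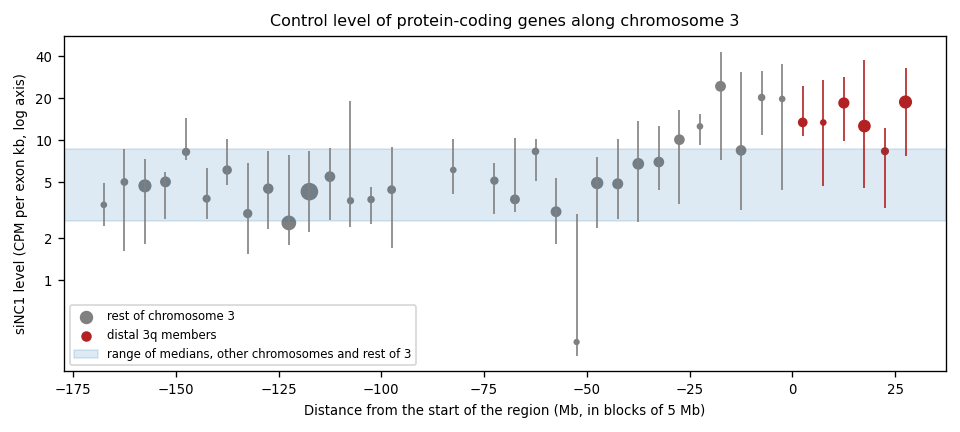
Median siNC1 level of protein-coding genes that met the minimum count, in CPM per kilobase of exon on a log axis, against the distance in Mb from the start of the region, in blocks of 5 Mb with at least 3 genes. Bars are quartiles and larger points hold more genes. The red blocks of the members lie between 8.36 and 18.8, and the grey blocks of the last 20 Mb before them lie in the same range or higher, while the band of the other chromosomes spans 2.67 to 8.63.

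Translation genes held the highest levels per kilobase of exon. RPL35A, a protein of the large ribosomal subunit, stood at 699, 715 and 734 CPM in the siNC1 libraries, and EIF4A2, an RNA helicase of translation initiation, at 1488, 1506 and 1457 CPM. Per kilobase of exon they reached 247 and 242 CPM. The next were SNORD2, a snoRNA gene within EIF4A2, MRPL47 of the mitochondrial ribosome and the pseudogene SDHAP4. SNORD2 lies inside EIF4A2, SDHAP4 has near copies in the genome, and RPL35A shares reads with IQCG on the opposite strand, whose counts were 104% of those of RPL35A. MUC4, KLHL6 and DGKG, a diacylglycerol kinase, had the lowest levels.

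Genes often discussed as drivers of the 3q gain covered a wide range of levels in siNC1. Per kilobase of exon, ECT2, a factor of cytokinesis, led with 99.8 ± 0.855 CPM per kilobase of exon (SD, n = 3). EIF4G1, the scaffold of the cap-binding complex, had 93.8 ± 7.18, a range that overlapped that of ECT2. ACTL6A, a subunit of chromatin remodelling complexes, had 84.6 ± 3.34, and FXR1, an RNA-binding protein, 73.0 ± 1.67. These genes were followed by the mRNA-binding protein IGF2BP2 and by the overlapping pair of PRKCI, an atypical protein kinase C, with 56.2 ± 1.43 and PAK2, a kinase activated by Rac and Cdc42, with 55.5 ± 0.622. PIK3CA, the catalytic subunit of phosphoinositide 3-kinase, stood lower at 10.3 ± 0.196, below the median of the protein-coding members. At the low end were MECOM, a zinc finger transcription factor, with 6.15 ± 0.186, BDH1, a mitochondrial enzyme of ketone body metabolism, with 4.75 ± 0.175, and BCL6, a transcriptional repressor, with 4.56 ± 0.259. The ranges of BDH1 and BCL6 overlapped, and between the other neighbours of the 18 genes followed by name the siNC1 libraries did not overlap. This order depends on the length used. Per kilobase of gene span, over which reads were counted, EIF4G1 led with 39.4 CPM, followed by ACTL6A with 12.2, ECT2 with 7.75 and FXR1 with 7.56, and IGF2BP2 went from rank 21 among the 152 members to rank 82.

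Replicates were close for most members. The coefficient of variation of a member's CPM had a median between 3.59% in siKLF5b and 5.39% in siTP63b. The highest value was that of KLHL6 in siTP63b at 32.0%, where the CPM was low.

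Most of these genes differed little in the 4 comparisons, and so did most genes that met the minimum count. By comparison, 70.4% to 82.9% of the members had a log2FC within 0.25 of 0. Among genes that met the minimum count the share was 67.7% to 77.5%. No call, defined as an adjusted p below 0.05 with an absolute log2FC above 0.75, was made in any of the 4 comparisons for 146 of the 152 members. The absolute log2FC stayed below 0.5 in all 4 for 128 members, and 28 passed the adjusted p in none. Calls were made for 1.32%, 2.63%, 1.32% and 1.97% of the members in siKLF5b, siTP63b, siSOX2b and siGRHL2a. Among other genes that met the minimum count the shares were 2.53%, 2.75%, 1.66% and 1.21% in the same order. The 6 members with a call were LAMP3, MUC4, MUC20, LIPH, NCEH1 and KLHL6. KLHL6 met the minimum count only through siGRHL2a, with a mean of 124 counts over all libraries and 74.8 over the 12 others, so its calls against that group follow in part from the rule and are given as a description. Without the calls of KLHL6 the shares were 1.97% of the members in siTP63b and 1.32% in siGRHL2a. LMLN-AS1 and LPP-AS2, which had no call, were the other members under 100 without siGRHL2a. The 3 comparisons among siTP63b, siSOX2b and siGRHL2a use the same 9 libraries, so that a rise in 1 group appears as a fall in the others.

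**Figure D2:**
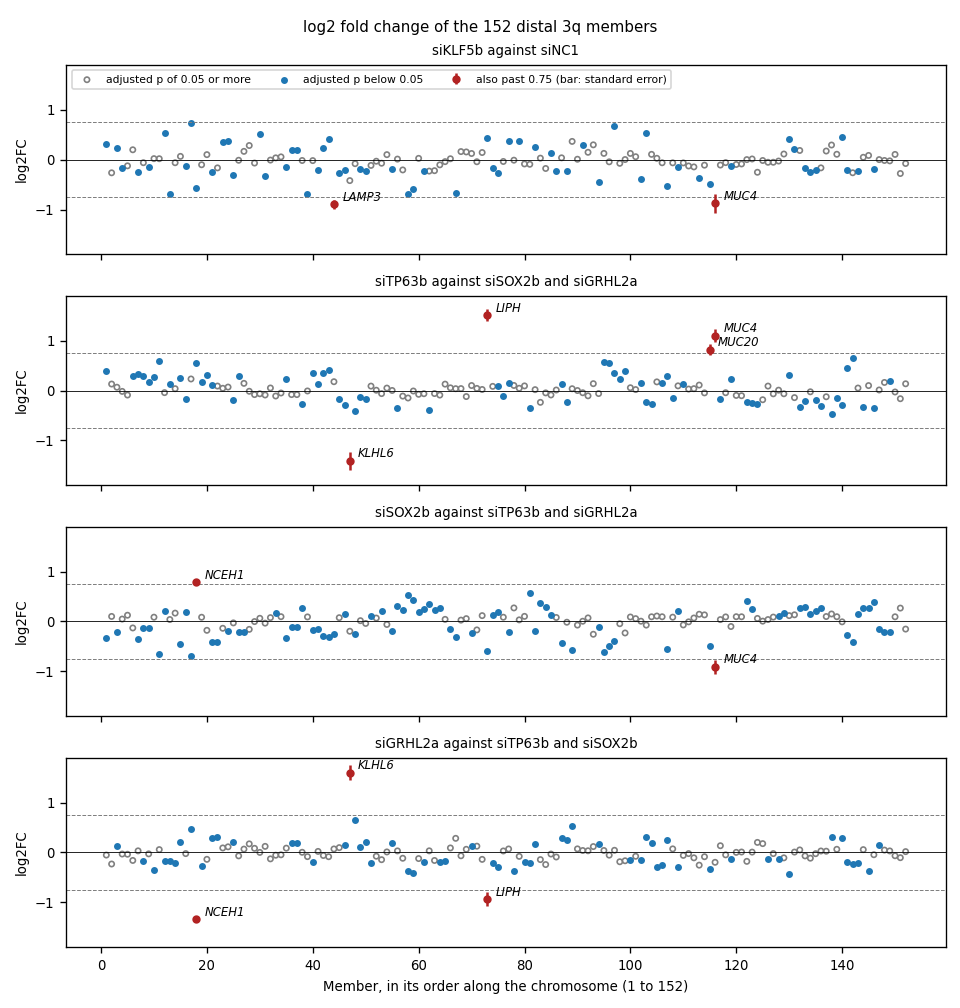
log2FC of the 152 members in the 4 comparisons, plotted by their order along the chromosome. Grey circles had an adjusted p of 0.05 or more, blue points were below it, and red points with their standard error were also past 0.75 (dashed lines). Most points lie within 0.5 of 0. The called members lie in several parts of the region, with MUC20 next to MUC4 and LAMP3 close to KLHL6.

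siKLF5b was compared with siNC1 to ask which genes depend on KLF5, a zinc finger factor of epithelial cells. LAMP3 and MUC4 were called lower, 2 of 152 members, beside 1.37% of the 25108 genes tested. No member was called higher, beside 1.89% of all genes. By the adjusted p alone 22 members were higher and 40 lower, beside 10.3% and 12.9% of all genes. Of these 62 differences, 26 had an absolute log2FC below 0.25. The members' counts are high, with a median mean of 2070 counts against 696 in other genes that met the minimum count, and 40.8% of the members and 34.0% of those other genes passed the adjusted p. The members' median log2FC was −0.048, beside −0.010 over all genes tested and −0.037 over those other genes.

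LAMP3 (ENSG00000078081.8, chr3:183122215-183163839 on the minus strand), a membrane glycoprotein of lysosomes, stood at 30.9, 28.4 and 30.3 CPM in siNC1 and at 15, 16.2 and 17.2 CPM in siKLF5b. All siKLF5b libraries were below all siNC1 libraries. The log2FC was −0.89 ± 0.094 (SE), with an adjusted p of 1.2e-08 by edgeR's quasi-likelihood test. In the other set LAMP3 was between 12.3 and 16.7 CPM in all 9 libraries, and it was called in none of their comparisons.

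MUC4 (ENSG00000145113.22, chr3:195746765-195811973 on the minus strand), a large mucin anchored in the membrane of epithelial cells, measured 5.05, 4.61 and 3.86 CPM in siNC1 and 2.42, 2.63 and 2.23 CPM in siKLF5b. The groups did not overlap. Its log2FC was −0.88 ± 0.18 with an adjusted p of 5e-04 by the edgeR test. When each library was left out in turn the log2FC of MUC4 stayed between −0.99 and −0.79. Neither LAMP3 nor MUC4 passed a test against a log2FC of 0.75 itself, edgeR's glmTreat, where both had an adjusted p of 1.

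TNFSF10, which encodes the death receptor ligand TRAIL, was the member with the highest log2FC. It had 34.9, 31.8 and 31.7 CPM in siNC1 and 56.6, 53.5 and 53.8 CPM in siKLF5b, with no overlap. Its log2FC of 0.74 ± 0.089 had an adjusted p of 1.8e-07 by the edgeR test but fell just short of 0.75. TNFSF10 passed that limit with upper-quartile factors, with protein-coding genes alone, with the 6 libraries alone, with halved counts in the other set, and without siNC1 replicate 1.

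Among the 18 genes followed by name, 11 fell by the adjusted p alone and 2 rose in siKLF5b, none of them past 0.75. Of other genes that met the minimum count 19.9% were lower and 14.1% higher. The 18 were chosen with earlier results known, so their counts are a description. IL1RAP, the accessory chain of the interleukin-1 receptor, had the largest decrease among the 11. It stood at 435, 422 and 430 CPM in siNC1 and 315, 320 and 313 CPM in siKLF5b, with a log2FC of −0.44 ± 0.047 (adjusted p = 1.2e-08, edgeR). BDH1 fell from 54.0, 58.1 and 56.2 CPM to 51.6, 45.0 and 47.5 CPM, a log2FC of −0.22 ± 0.062 (adjusted p = 0.0073, edgeR). MECOM rose with a log2FC of 0.31 ± 0.059 (adjusted p = 2e-04, edgeR). PIK3CA, ACTL6A and FXR1 had log2FCs of −0.01, −0.01 and −0.02, whose sign changed with the normalization.

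By role, members past the adjusted p alone were mixed in direction, beside 10.3% of all genes higher and 12.9% lower, and 14.1% and 19.9% among other genes that met the minimum count. Of 17 genes of the secretory pathway, trafficking and glycosylation, which include LAMP3, 1 was higher and 6 were lower. Of 8 genes of ubiquitin, SUMO and proteasome function none was higher and 4 were lower, among them the SUMO protease SENP2 (log2FC −0.18 ± 0.049) and the cullin neddylation factor DCUN1D1 (−0.20 ± 0.048). Of 18 signalling genes none was higher and 4 were lower. Of 16 translation and RNA processing genes 3 were higher and 5 lower, with EIF4A2 at 0.26 ± 0.045 and EIF4G1 at −0.24 ± 0.052. Of 7 genes of genome maintenance and cell division 2 were higher and none was lower. Cell surface and secreted proteins had 3 higher and 4 lower, mitochondria and metabolism 3 and 3, transcription and chromatin 2 and 5, transporters and channels 1 and 1, noncoding RNA genes 4 and 2, other protein-coding genes 2 and 6, and pseudogenes 1 and none. With so few genes in a role, no role is set apart from the others by these counts.

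siTP63b, siSOX2b and siGRHL2a were compared with each other to ask which members differ between these 3 siRNAs. For siGRHL2a the contrast in the targeted mRNA was small, with GRHL2 at a log2FC of −0.25, TP63 at 0.73 and SOX2 at 0.31. With siTP63b, LIPH, MUC4 and MUC20 were called higher than in the other 2 knockdowns, 3 of 152 members, beside 2.65% of all genes tested. No member was called lower, beside 2.73%, other than KLHL6, which met the minimum count only through siGRHL2a. By the adjusted p alone 39 were higher and 30 lower, beside 16.1% and 14.9% of all genes and 21.9% and 19.9% of other genes that met the minimum count. In both directions together these were 45.4% of the members and 41.8% of those other genes. The members' median log2FC was 0.019, that of all genes −0.002 and that of those other genes 0.002.

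With siSOX2b, NCEH1 was called higher and MUC4 lower, beside 1.23% and 2.37% of all genes tested in those directions. By the adjusted p alone 37 members were higher and 43 lower, beside 14.3% and 14.6% of all genes and 20.5% and 19.6% of other genes that met the minimum count. These were 52.6% of the members and 40.1% of those other genes. The members' median log2FC was 0.053 against −0.003 over all genes and 0.009 over those other genes. With siGRHL2a, no member other than KLHL6, chosen through that group, was called higher, beside 2.03%, and NCEH1 and LIPH lower, beside 0.94%. By the adjusted p alone 26 members were higher and 34 lower, beside 12.5% and 11.3% of all genes and 16.3% and 16.7% of other genes that met the minimum count, or 39.5% of the members and 33.0% of those other genes. The median log2FCs were −0.031 for the members, 0.021 for all genes and −0.002 for those other genes.

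MUC4 had 7.77, 9.04 and 10.1 CPM in siTP63b, 3.61, 3.82 and 3.14 CPM in siSOX2b, and 4.15, 4.49 and 6.12 CPM in siGRHL2a. Every siTP63b library was above, and every siSOX2b library below, all of the others. The log2FC was 1.10 ± 0.12 for siTP63b (adjusted p = 2.2e-08, edgeR) and −0.90 ± 0.14 for siSOX2b (adjusted p = 6.2e-06, edgeR), each against the mean of the other 2. For siGRHL2a it was −0.20 ± 0.13 (adjusted p = 0.30, edgeR). With glmTreat against 0.75 both calls of MUC4 were lost, with adjusted p of 0.087 for siTP63b and 1 for siSOX2b.

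MUC20 (ENSG00000176945.18, chr3:195720884-195741123 on the plus strand), a second membrane mucin close to MUC4, measured 7.80, 9.96 and 9.22 CPM in siTP63b. It had 4.89, 5.24 and 4.51 CPM in siSOX2b and 5.66, 4.49 and 5.69 CPM in siGRHL2a. All siTP63b libraries lay above the rest, with a log2FC of 0.82 ± 0.12 (adjusted p = 1.2e-06, edgeR). Without siTP63b replicate 2 its log2FC was 0.745, below the limit, and its adjusted p was 1 with glmTreat. MUC20 overlaps the noncoding gene MUC20-OT1, which has more counts than MUC20, so reads of this locus are uncertain.

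LIPH (ENSG00000163898.10, chr3:185506262-185552588 on the minus strand), a phospholipase that makes lysophosphatidic acid and was listed with the metabolic genes, reached 9.40, 7.68 and 7.48 CPM in siTP63b. It stood at 3.39, 2.91 and 3.01 CPM in siSOX2b and at 2.06, 2.68 and 3.21 CPM in siGRHL2a. The siTP63b libraries were all above the others, whereas those of siSOX2b and siGRHL2a overlapped. The log2FC was 1.51 ± 0.13 for siTP63b (adjusted p = 3.2e-11, edgeR) and −0.93 ± 0.14 for siGRHL2a (adjusted p = 6.3e-06, edgeR). For siSOX2b it was −0.58 ± 0.14 (adjusted p = 0.0018, edgeR), under the limit of 0.75. With glmTreat LIPH kept its call in siTP63b (adjusted p = 2.5e-05) and lost that in siGRHL2a (adjusted p = 1).

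NCEH1 (ENSG00000144959.11, chr3:172630249-172711218 on the minus strand), a hydrolase of cholesterol esters also listed with the metabolic genes, measured 44.7, 39.2 and 38.4 CPM in siGRHL2a. It had 96.7, 98.5 and 99.5 CPM in siTP63b and 110, 118 and 97.7 CPM in siSOX2b. The siGRHL2a libraries were far below the rest, and siTP63b and siSOX2b overlapped. The log2FC for siGRHL2a was −1.34 ± 0.056 (adjusted p = 2.9e-17, edgeR) and that for siSOX2b was 0.78 ± 0.051 (adjusted p = 3.5e-13, edgeR), which dropped to 0.72 without siSOX2b replicate 2. With glmTreat the siGRHL2a call was kept (adjusted p = 4.2e-09) and the siSOX2b call was lost (adjusted p = 1). NCEH1 also had 81.0, 76.9 and 80.1 CPM in siNC1 and 52.0, 54.0 and 55.2 CPM in siKLF5b, a log2FC of −0.56 ± 0.064 (adjusted p = 5.3e-08, edgeR).

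KLHL6 (ENSG00000172578.12, chr3:183487551-183555706 on the minus strand), a Kelch protein that brings substrates to a cullin ubiquitin ligase and was listed with the signalling genes, had 10.2, 8.56 and 9.91 CPM in siGRHL2a. It had 3.07, 1.56 and 2.49 CPM in siTP63b and 4.52, 3.09 and 5.0 CPM in siSOX2b. All siGRHL2a libraries were above the rest, and all siTP63b libraries were below those of the other 2, the nearest siSOX2b library by a narrow gap. Its log2FC was 1.60 ± 0.15 for siGRHL2a and −1.41 ± 0.18 for siTP63b, whose comparison also holds siGRHL2a. No test is given for KLHL6, since its siGRHL2a counts made it a member. KLHL6 is best known from lymphocytes, and the leukocyte markers summed to at most 1.21 CPM in any library.

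**Figure D3:**
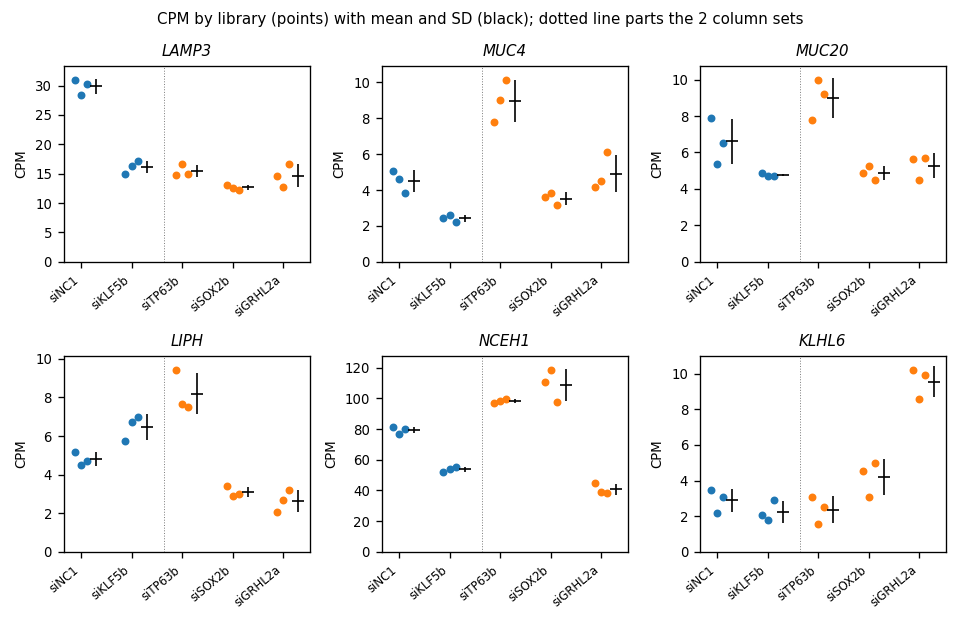
CPM of the 6 called members in the 15 libraries, with a point for each library and the mean and SD of each group in black. The dotted line parts the 2 sets of libraries, between which no test was made. Among the knockdowns to the right of the line, MUC4, MUC20 and LIPH were highest in siTP63b. NCEH1 was lowest and KLHL6 highest there in siGRHL2a. To the left of the line, LAMP3 was lower in siKLF5b than in siNC1.

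Sequence before the transcription start is shown for the 4 called members with an entry among the RefSeq promoters (GRCh38.p14), because each differed between knockdowns of sequence-specific factors. The 250 bases before each RefSeq start were searched on both strands for CCNCNCCC (KLF), CATTGTT and ACAATG (SOX), AACCNGTT (grainyhead) and ACATGT, the core of the p53 family half-site. Capitals mark matches, which do not overlap each other in the sequences shown, and each sequence is on the strand of its gene and stops where the counted gene begins. MUC4 is shown for chr3:195811974-195812179, KLHL6 for chr3:183555707-183555956, LIPH for chr3:185552589-185552838 and NCEH1 for chr3:172711219-172711317, all on the minus strand.
MUC4: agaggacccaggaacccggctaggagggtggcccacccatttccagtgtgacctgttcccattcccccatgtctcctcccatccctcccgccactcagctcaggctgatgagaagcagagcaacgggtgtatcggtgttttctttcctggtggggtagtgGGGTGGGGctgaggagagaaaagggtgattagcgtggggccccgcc
KLHL6: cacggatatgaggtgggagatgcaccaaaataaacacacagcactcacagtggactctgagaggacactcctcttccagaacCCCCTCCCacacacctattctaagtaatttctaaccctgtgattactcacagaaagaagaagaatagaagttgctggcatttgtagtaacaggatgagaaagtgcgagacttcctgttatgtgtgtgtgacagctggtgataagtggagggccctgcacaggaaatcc
LIPH: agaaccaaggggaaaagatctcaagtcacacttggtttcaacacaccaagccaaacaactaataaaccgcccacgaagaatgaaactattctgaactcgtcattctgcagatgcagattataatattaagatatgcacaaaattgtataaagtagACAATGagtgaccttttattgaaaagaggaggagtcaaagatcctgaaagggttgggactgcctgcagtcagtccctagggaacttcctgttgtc
NCEH1: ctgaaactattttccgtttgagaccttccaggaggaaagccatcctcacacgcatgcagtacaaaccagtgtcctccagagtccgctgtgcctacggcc
The MUC4 and KLHL6 sequences shown each hold 1 KLF match, the LIPH sequence holds 1 SOX match, and the NCEH1 sequence holds none. Of all 27305 promoters 52.4% hold the KLF letters and 9.45% the SOX letters, so that a KLF match is common. Among the 122 members with a promoter entry, 75 (61.5%) hold the KLF letters, 8 (6.56%) the SOX letters, 6 (4.92%) the grainyhead letters and 2 (1.64%) the p53 family core. Over all promoters the last 2 shares were 1.48% and 3.64%. A match is a description of letters and not of a binding site. LAMP3 and MUC20 had no entry.

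The genes followed by name had smaller differences among the 3 knockdowns. A rise or fall here is relative to the mean of the other 2 knockdowns and says nothing of the level against siNC1. PIK3CA had 133, 136 and 132 CPM in siTP63b, 110, 104 and 104 CPM in siSOX2b and 116, 115 and 110 CPM in siGRHL2a. Its siTP63b libraries were above the rest, with a log2FC of 0.28 ± 0.039 (adjusted p = 1e-06, edgeR). PRKCI had 399, 384 and 389 CPM in siTP63b against 305 to 339 CPM in the other 6 libraries, a log2FC of 0.30 ± 0.039 (adjusted p = 3.6e-07, edgeR).

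TFRC, the transferrin receptor, rose in siTP63b with a log2FC of 0.24 ± 0.039 (adjusted p = 2e-05, edgeR), and its siTP63b libraries of 557, 530 and 540 CPM were above the 434 to 491 CPM of the others. MECOM rose there with 0.38 ± 0.050 (adjusted p = 2.7e-07, edgeR) and had 61.2, 61.5 and 63.2 CPM. FXR1 fell in siTP63b, with 587, 633 and 539 CPM and a log2FC of −0.27 ± 0.046 (adjusted p = 2.4e-05, edgeR), and PAK2 fell with −0.21 ± 0.040 (adjusted p = 7.9e-05, edgeR). The siTP63b group was thus the highest of the 3 for PIK3CA, PRKCI, TFRC and MECOM and the lowest for FXR1 and PAK2.

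In siSOX2b the decreases were led by TNFSF10, with 6.85, 6.0 and 7.08 CPM against 8.88 to 13.0 CPM in the other 6 libraries and a log2FC of −0.69 ± 0.096 (adjusted p = 1.3e-06, edgeR). TBL1XR1, a subunit of nuclear receptor corepressor complexes, had 378, 386 and 384 CPM against 475 to 545 CPM, a log2FC of −0.41 ± 0.040 (adjusted p = 2.4e-09, edgeR). PAK2 rose in siSOX2b, with 533, 576 and 514 CPM and a log2FC of 0.28 ± 0.039 (adjusted p = 1.1e-06, edgeR). EIF4G1 rose with 0.26 ± 0.044 (adjusted p = 3.1e-05, edgeR), at 1168, 1111 and 1150 CPM. For TNFSF10, TBL1XR1, PAK2 and EIF4G1 the siSOX2b libraries did not overlap the others.

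In siGRHL2a ECT2 was lower and had 366, 347 and 344 CPM against 401 to 441 CPM in the other 6 libraries, a log2FC of −0.26 ± 0.039 (adjusted p = 4.2e-06, edgeR). IGF2BP2 was at −0.29 ± 0.040 (adjusted p = 1.6e-06, edgeR) and SENP2 at −0.21 ± 0.042 (adjusted p = 0.00035, edgeR), both also below every other library of the set. BDH1 had 53.6, 52.2 and 49.5 CPM, below the 56.7 to 63.1 CPM of the others, and a log2FC of −0.20 ± 0.051 (adjusted p = 0.0034, edgeR). ACTL6A did not pass the adjusted p in any of the 4 comparisons, and its log2FC lay between −0.13 and 0.08.

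**Figure D4:**
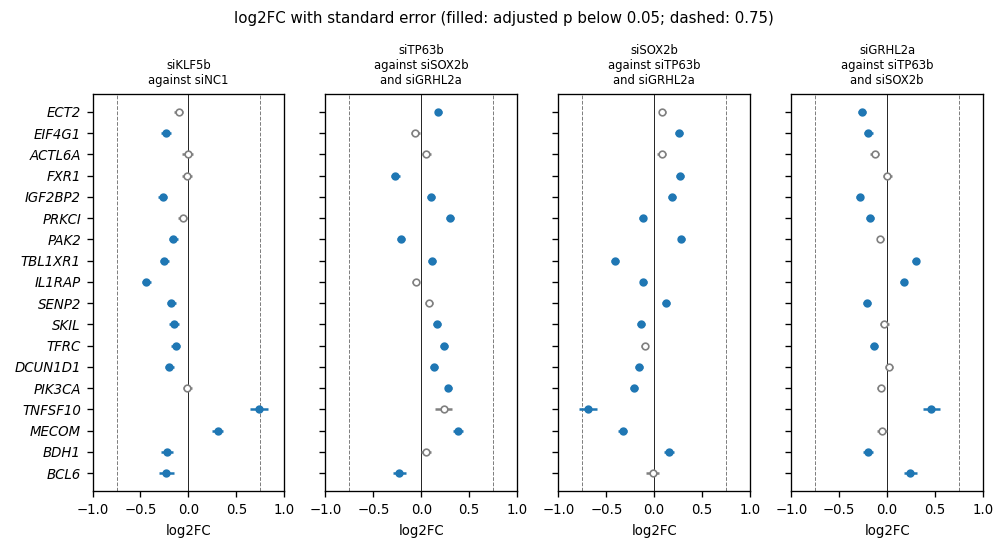
log2FC with its standard error of the 18 genes followed by name in the 4 comparisons, from the highest siNC1 level per kilobase of exon at the top to the lowest. Filled points had an adjusted p below 0.05 and dashed lines mark 0.75. No gene is past the dashed lines, TNFSF10 in siKLF5b comes nearest with 0.74, and ACTL6A is open in all 4 panels.

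By role, cell surface and secreted proteins had 7 of 12 members higher and 1 lower in siTP63b by the adjusted p alone, none higher and 6 lower in siSOX2b, and 3 in each direction in siGRHL2a. The shares among other genes that met the minimum count were 21.9% and 19.9%, 20.5% and 19.6%, and 16.3% and 16.7% in these comparisons. The median log2FCs of the cell surface and secreted members were 0.25, −0.22 and −0.02. The 16 genes of translation and RNA processing had 5 higher and 5 lower in siTP63b, 8 higher and 4 lower in siSOX2b, and 3 higher and 5 lower in siGRHL2a. Of the 12 genes of mitochondria and intermediary metabolism 3 were higher and none lower in siTP63b, 4 higher and 2 lower in siSOX2b, and none higher and 5 lower in siGRHL2a. The 9 pseudogenes had at most 1 in each direction, and their log2FCs ran from −0.34 to 0.28. In siTP63b the higher and lower counts were 7 and 5 of 18 for signalling, 4 and 2 of 13 for transcription and chromatin, 1 and 5 of 17 for the secretory pathway and 2 and 1 of 8 for ubiquitin, SUMO and proteasome. The same roles had 4 and 5, 1 and 5, 4 and 4, and 4 and 3 in siSOX2b, and 3 and 5, 4 and 3, 3 and 3, and 1 and 2 in siGRHL2a. Genome maintenance had 1 and 1, 3 and 2, and 1 and 2 of 7 in the order siTP63b, siSOX2b and siGRHL2a, and transporters 2 and 0, 1 and 2, and 0 and 2 of 7. Noncoding RNA genes had 3 and 5, 3 and 6, and 5 and 2 of 21, and other protein-coding genes 3 and 4, 4 and 3, and 3 and 2 of 12.

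Position along the region did not order the changes into 1 direction. In siTP63b 11 of the 19 members of the first 5-Mb block were higher by the adjusted p alone and 1 was lower, whereas of the 51 members of the last block 11 were higher and 16 lower, beside 16.1% and 14.9% of all genes and 21.9% and 19.9% of other genes that met the minimum count. In siSOX2b the first block had 3 higher and 8 lower and the last had 14 higher and 8 lower, beside 14.3% and 14.6%, or 20.5% and 19.6%. The blocks' median log2FCs lay between −0.18 and 0.18 in the comparisons among the 3 knockdowns and between −0.06 and 0.09 in siKLF5b.

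**Figure D5:**
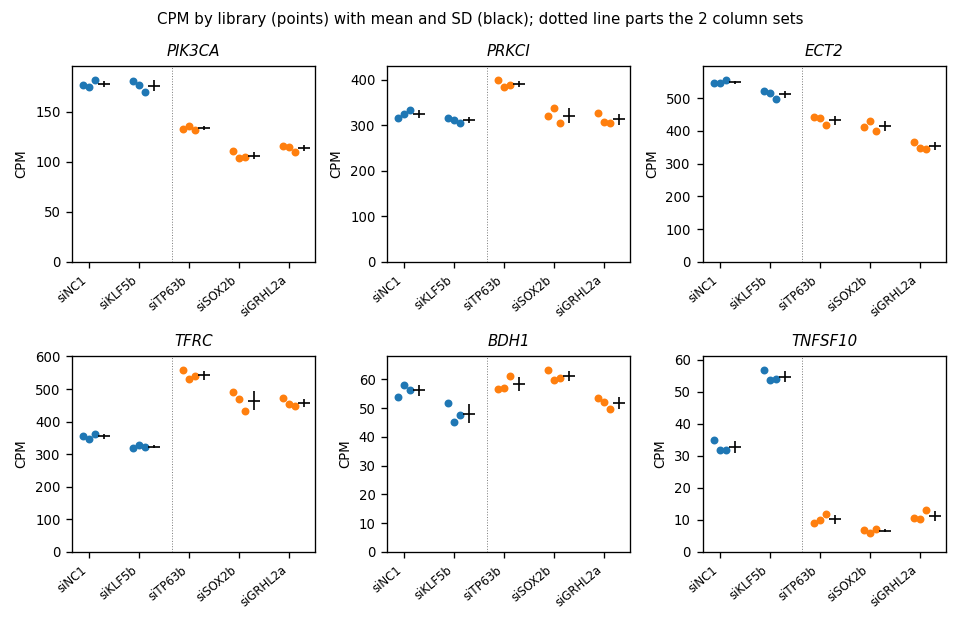
CPM of PIK3CA, PRKCI, ECT2, TFRC, BDH1 and TNFSF10 in the 15 libraries, with a point for each library and the mean and SD of each group in black. The dotted line parts the 2 sets of libraries. PIK3CA, PRKCI and TFRC were highest in siTP63b among the 3 knockdowns to its right, ECT2 and BDH1 were lowest in siGRHL2a, and TNFSF10 was higher in siKLF5b than in siNC1.

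The summed level of the members was 22823 to 23050 CPM in siNC1 and 22051 to 22466 CPM in siKLF5b, and 20820 to 21452, 20723 to 21244 and 20320 to 20733 CPM in siTP63b, siSOX2b and siGRHL2a. By these sums siKLF5b libraries were all below siNC1, and the 3 other groups overlapped in part. The order of siNC1 and siKLF5b depends on the TMM factors, which were 0.950 to 0.963 in siNC1 and 0.993 to 1.01 in siKLF5b. As a share of raw counts the order was reversed, with 2.18% to 2.21% in siNC1 and 2.22% to 2.23% in siKLF5b. The sums are led by the most abundant members, and sums and shares are given without a test.

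Neighbouring genes can share reads, and this limits single values. It also limits the counts of members by direction, role and block, where overlapping entries were taken as separate genes. IQCG, for instance, was listed under genome maintenance and RPL35A under translation. Of the 152 members 123 overlap another listed gene, 21 lie inside one, and 79 overlap a gene with 10% or more of their counts. By the adjusted p alone, 7 of the 73 members without such an overlap were higher and 27 lower in siKLF5b. These counts were 25 and 13 in siTP63b, 19 and 22 in siSOX2b, and 12 and 21 in siGRHL2a. In 5 pairs of members on opposite strands, chosen after their values were seen, the overlapping gene had 80% to 125% of the counts of its partner. The libraries of KCNMB2 and its antisense gene KCNMB2-AS1, of TTC14 and CCDC39, and of IQCG and RPL35A differed by at most 7.23%, 3.41% and 6.84%, whereas those of SLC51A and PCYT1A differed by up to 19.0% and those of FAM131A and CLCN2 by up to 37.1%. PIK3CA overlaps KCNMB3, whose counts were 25% of its own, and EIF4A2 overlaps RFC4, at 23.0%. These percentages take all counts of the overlapping gene, however short the overlap, and are not the share of reads in common. EIF4A2, for instance, ends at 186789897 and RFC4 begins at 186789880. Of the called members, LAMP3, MUC4, LIPH, NCEH1 and KLHL6 overlapped no gene with 10% or more of their counts. At the edge of the rule, LMLN-AS1 and UBXN7-AS1 were just inside with mean counts of 103 and 116, and SLC7A14 and MAP6D1 just outside with 99.3 and 80.9.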

How the data were processed

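Polyadenylated RNA of HCC95 cells was sequenced in 15 libraries, 3 for each siRNA. HISAT2 2.2.1 (genome hg38) and featureCounts 2.0.1 (Gencode release 40) were run by the authors, and raw counts for each gene were deposited. The counted length of all 61544 genes was the whole span, so intronic reads count. Strand use, and whether reads or fragments were counted, are not given in the sources used here. The strand setting itself was not tested. Among 5 pairs of members on opposite strands, TTC14 and CCDC39 differed least, by at most 3.41% in any library. FAM131A and CLCN2 differed most, by up to 37.1%. Of 9429 genes inside another gene on the same strand, 6802 had counts. Counts of such overlapping genes cannot be read as the separate expression of each gene. Each of the 15 columns carries the name of its library. Totals of 15655495 to 34229063 counts set the precision.

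The statistics used edgeR 4.0.16 under R 4.3.3 (TMM, filterByExpr by group, 1 quasi-likelihood fit of 15 libraries, Benjamini-Hochberg adjustment over 25108 genes). A gene was called where the adjusted p was below 0.05 and the absolute log2FC exceeded 0.75. Exon lengths and gene types came from Gencode release 44. Levels per kilobase divide CPM by the union of exons. The steps were tested on simulated data of 25108 genes for siKLF5b against siNC1. There edgeR called 200 of 200 genes changed by a log2FC of 1.5, and 6 unchanged genes. Changes near the limit of 0.75 and changes in genes of low CPM were not simulated, so this test does not cover them.

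The members, role lists, marker lists and named genes were chosen with earlier results of these data known. Named were 18 genes often discussed in 3q gain, the called members, the 5 highest and 3 lowest in level, and genes at the edge of the rule. The role lists were 12, and the marker lists were epithelial and squamous, leukocyte, fibroblast, endothelial and other lung epithelium, the last summing to between 3.94 and 5.63 CPM in siNC1. Alternatives were RLE and upper-quartile factors, other count filters, a replicate block, 1 set of libraries, DESeq2 1.42.0, other thresholds, halved counts, protein-coding genes alone, and each library left out.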

Additional observations from a re-analysis of the deposited data

How the results depend on the processing

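The called members were the same with RLE factors, with both other count filters, with DESeq2 and with the replicate number as a block. The higher and lower counts were then 0 and 2 in siKLF5b, 3 and 1 in siTP63b, 1 and 1 in siSOX2b, and 1 and 2 in siGRHL2a. The 1 lower in siTP63b and the 1 higher in siGRHL2a were KLHL6, which met the minimum count only through siGRHL2a. The replicate numbers did not pair the samples, since same-numbered libraries correlated between −0.273 and 0.00858 in siKLF5b and siNC1, where 0 of 3 pairs were best with their own number, and between −0.103 and 0.142 among the other groups, where 4 of 9 were. The count of higher members in siKLF5b became 1 with upper-quartile factors, with 1 set of libraries, with halved counts and with protein-coding genes alone, the gene being TNFSF10. Without a log2FC threshold the higher and lower counts were 22 and 40 in siKLF5b, 39 and 30 in siTP63b, 37 and 43 in siSOX2b, and 26 and 34 in siGRHL2a. With an absolute log2FC above 1 the lower count was 0 in siKLF5b, 0 in siSOX2b and 1 in siGRHL2a, and the higher count in siSOX2b was 0. With glmTreat against 0.75 these were again 0, 0, 1 and 0, and the higher count in siTP63b was 1, with MUC4 and MUC20 lost. Leaving out 1 library at a time, the higher count ranged from 0 to 1 in siKLF5b, from 2 to 3 in siTP63b and from 0 to 1 in siSOX2b, and the lower count from 2 to 3 in siKLF5b and from 1 to 2 in siSOX2b. The changes were TNFSF10 gained without siNC1 replicate 1, EEF1AKMT4 without siNC1 replicate 2, C3orf70 without siKLF5b replicate 2 and UTS2B without siSOX2b replicate 1, and MUC20 lost without siTP63b replicate 2 and NCEH1 without siSOX2b replicate 2. The causes were not tested.

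The median log2FC of the members in siKLF5b was −0.0298 with upper-quartile factors, −0.0413 with at least 10 counts in every library, −0.0299 with 1 set of libraries, −0.0289 with halved counts and −0.0103 with protein-coding genes alone. Leaving out 1 library at a time it ranged from −0.0652 to −0.0448 in siKLF5b, from 0.00174 to 0.0328 in siTP63b, from 0.0372 to 0.0704 in siSOX2b and from −0.0557 to −0.0276 in siGRHL2a. The siNC1 level of all 152 members, with a median of 15.6 CPM per kilobase of exon, was 2.17 CPM per kilobase of span and 14.9 with the plain sum of counts as library size.

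Only values near 0 that had no call changed sign. In siKLF5b, PIK3CA became 0.00605 with upper-quartile factors, 0.00374 with 1 set of libraries, 0.00545 with halved counts and 0.0193 with protein-coding genes alone. ACTL6A became 0.00970, 0.00721, 0.00910 and 0.0228 in the same order, and FXR1 became 0.00124 with upper-quartile factors, 0.000645 with halved counts and 0.0145 with protein-coding genes alone. In siGRHL2a, FXR1 became −0.0110 with RLE factors, −0.00161 with at least 10 counts in every library, −0.0113 with DESeq2 and −0.00541 with halved counts. Leaving out 1 library at a time, the log2FC in siKLF5b ranged from −0.0416 to 0.00654 for PIK3CA, from −0.0425 to 0.0346 for ACTL6A and from −0.0502 to 0.00534 for FXR1. That of BCL6 in siSOX2b ranged from −0.0495 to 0.0297, and in siGRHL2a FXR1 ranged from −0.0379 to 0.0348, DCUN1D1 from −0.00624 to 0.0292 and LAMP3 from −0.0450 to 0.165. Reads shared between overlapping genes, a single siRNA for each factor and the parting of the libraries into 2 sets limit all of these values.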
